A study of Mus musculus with 22 samples.

Results

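Osteopontin, encoded by Spp1, and 4 genes of its receptors (Cd44, Itga4, Itgb1 and Itgb3) were followed through 22 RNA-seq libraries of retinal microglia. The genes were taken by name from the transcript tables, in which their transcripts were summed, and they make up 5 of 35596 genes. All 5 passed the filter on low counts that left 12415 genes for testing. Microglia, the resident macrophages of the retina, were sorted from 12-week-old mice 24 hours after apoptotic neurons had been placed in the vitreous, and carriage of the Alexa488 label divided them into phagocytic and non-phagocytic cells. The wild-type mice were of the C57BL/6 strain, and the Apoe -/- mice, whose strain is given as Apoe KO, lack apolipoprotein E, with no driver or cell type restriction named. All animals of every group received the injection, so no library shows microglia of an untouched eye. Each library held RNA of 5 to 6 retinas of equal sex and genotype, with 100 to 500 phagocytic cells collected, and the wild-type groups comprised 5 phagocytic and 5 non-phagocytic libraries, the Apoe-/- groups 6 of each. The labels do not say whether mice were shared between pools, so the p-values measure the spread between these pools.

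Osteopontin is a secreted, highly acidic phosphoprotein that macrophages and bone cells release into the matrix. Its arginine-glycine-aspartate (RGD) motif is bound by integrins, among them the pair of the αv and β3 chains, while the stretch next to the motif is bound by α4β1 and α9β1 after thrombin has cut the protein. CD44, the hyaluronan receptor, is the other classical receptor, and reports of binding concern chiefly its variant forms. An integrin is a pair of 1 α and 1 β chain, so the α4 chain (Itga4) needs a β partner such as β1 (Itgb1), and β3 (Itgb3) pairs with αv. In microglia, Spp1 is known as a gene of the phagocytic and disease-associated states and of the developing brain.

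Spp1 lies on chromosome 5 at 104435118 to 104441050 on the plus strand of mm10 (the same assembly as GRCm38). The part of the message that carries the integrin motif is printed first because it shows what the counted transcripts encode. It falls in exon 6 of transcript Spp1-201, at chr5:104439469-104439516, and capitals mark the 3 codons of the RGD motif.

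Spp1 coding stretch: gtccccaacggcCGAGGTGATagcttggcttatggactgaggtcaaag

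This stretch was present in full in 5 of the 7 annotated Spp1 transcripts, Spp1-201 to Spp1-205, and not in the short Spp1-206 and Spp1-207. The annotated end of Spp1-207, at 104439504, lies inside the stretch, so Spp1-207 was not shown to lack the RGD codons themselves. The authors' transcript estimates placed nearly all Spp1 reads on forms that hold the whole stretch. Spp1-201 took 87.7% of Spp1 reads on average over the 22 libraries, Spp1-205 took 11.3% and Spp1-204 took 0.951%. In every library, Spp1-201 and Spp1-205 together took between 94.3% and 100% of the reads. Both have 7 exons and a coding sequence of 882 bases, and they start within a few bases of each other, at 104435118 and 104435121, whereas Spp1-204 starts downstream at 104436192. The reads thus lay on transcripts of the upstream start, and the 250 bases before it (RefSeq, GRCm38.p6, plus strand, chr5:104434861-104435110) are shown with 2 motifs in capitals.

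Spp1 promoter: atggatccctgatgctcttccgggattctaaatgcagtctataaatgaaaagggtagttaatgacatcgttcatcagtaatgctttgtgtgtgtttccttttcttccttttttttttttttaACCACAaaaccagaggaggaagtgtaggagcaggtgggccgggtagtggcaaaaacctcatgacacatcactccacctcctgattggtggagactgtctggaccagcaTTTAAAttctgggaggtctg

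The letters ACCACA, the core that RUNX factors are known to bind, begin at position -128 from the RefSeq start, and the TATA-like letters TTTAAA begin at -20. Both motifs were sought on both strands and do not overlap. ACCACA was found in 14% and TTTAAA in 12.1% of all 32851 promoter windows of this length, so each is a common word. A second RefSeq window of Spp1 held neither motif. Of the receptor genes, the windows of Cd44 and Itgb1 held neither motif and that of Itga4 held ACCACA, while no window of Itgb3 was used here.

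The library with the fewest reads for Spp1-201 was an exception among the transcript shares. In Apoe-/- phagocytic library 5, 46 reads in all were assigned to Spp1, and 100% of them were placed on Spp1-205 and 0 on Spp1-201. The share of Spp1-205 was between 5.95% and 13.2% in all 5 wild-type phagocytic libraries, and in the wild-type non-phagocytic libraries it was 0 in 3 and 9.52% and 16.8% in the others. In the Apoe-/- libraries it ran from 0 to 100% in phagocytic and from 0 to 23.1% in non-phagocytic cells.

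**Figure D1:**
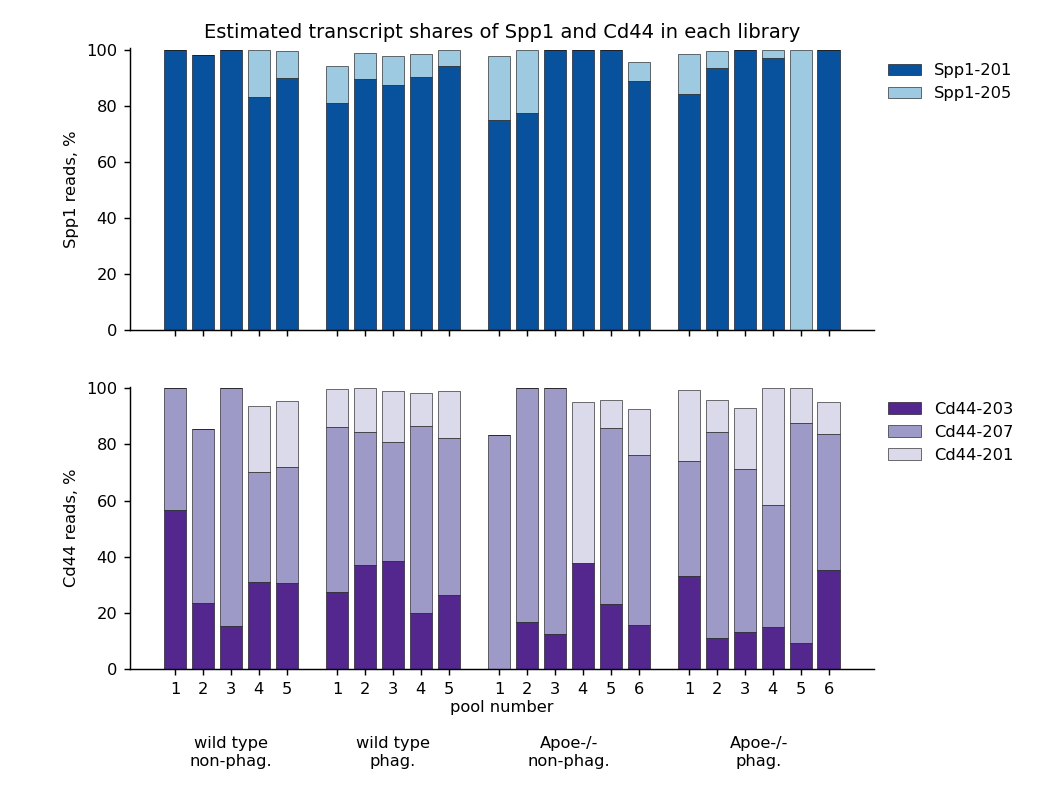
Share of the estimated reads of Spp1 (top) and Cd44 (bottom) placed on each named transcript, in percent, as 1 stacked bar per library, with pool numbers on the horizontal axis and libraries ordered by group. Bars end below 100% where other annotated transcripts took reads, and Apoe-/- phagocytic library 5 is the bar in which Spp1-205 took all Spp1 reads.

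Spp1 was the most abundant of the 5 transcripts per unit of length in nearly every library. Levels of different genes are compared here in TPM, which corrects for transcript length. Spp1 had a median of 107 TPM over the 22 libraries and exceeded Cd44 in 21 of 22 libraries, Itgb1 in 21 of 22 and Itgav, the αv chain, in 20 of 22. Cd44 (median 16.6 TPM) and Itgb1 (17.2 TPM) were neighbours whose order changed between libraries, with Itgb1 the higher in 12 of 22. Itga4 followed with a median of 4.86 TPM, below Cd44 in 21 of 22 libraries and below Itgb1 in all 22. Itgb3 was the lowest, with a median of 2.64 TPM, yet Itga4 exceeded it in only 15 of 22 libraries, so those neighbours were not separated by their spread. In wild-type non-phagocytic cells the medians were 4.32 TPM for Itga4 and 4.82 TPM for Itgb3. A pair of other β chains was more abundant. Itgb2, the β2 chain of leukocyte integrins, had a median of 257 TPM and Itgb5, which pairs with αv, a median of 95.7 TPM, and each exceeded Itgb1 in all 22 libraries.

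In wild-type cells, Spp1 was higher in every phagocytic library than in any non-phagocytic library. Levels are given in CPM, that is, the reads of a gene relative to the TMM-corrected size of its library. The 5 phagocytic libraries, in the order of their pool numbers, stood at 1343, 3291, 817, 842 and 691 CPM. The 5 non-phagocytic libraries stood at 123, 87.1, 126, 196 and 550 CPM. The lowest phagocytic library (691 CPM, pool 5) and the highest non-phagocytic library (550 CPM, also pool 5) lay close together, while the phagocytic library of pool 2 stood far above the others. Of all genes tested, 2.14% had groups that did not overlap in this comparison, in either direction. The log2 fold change was 2.69 ± 0.66 (SE), a 6.45-fold higher level, and did not pass edgeR's quasi-likelihood test (Benjamini-Hochberg adjusted p = 0.0857). Without wild-type non-phagocytic library 5 it was 3.40 and passed (edgeR adjusted p = 0.0437). The other fits that left out 1 library did not pass, with values down to 2.09 and an edgeR adjusted p of up to 0.324. In this comparison edgeR called 0.209% of the genes and 0 of the 5 members. An unadjusted p under 0.05 was found for 4 members and for 961 of the 12415 genes. DESeq2 called 1 member, Spp1.

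In Apoe-/- cells the phagocytic libraries did not move together. Spp1 stood at 614, 587, 84.1, 210, 41.4 and 34.3 CPM in phagocytic libraries 1 to 6. The non-phagocytic libraries held 114, 145, 60.1, 79.8, 62.3 and 96.2 CPM. Thus 3 phagocytic libraries lay above every non-phagocytic library and 2 lay below every one of them, a spread that the non-phagocytic group did not show. The lowest phagocytic libraries rested on 41 and 46 Spp1 reads, against 1555 to 10228 reads in the wild-type phagocytic libraries. The log2 fold change was 1.51 ± 0.59 (edgeR adjusted p = 0.357) and came to 1.04 without phagocytic library 1. In this comparison edgeR called 0.467% of all genes and 0 of the 5 members, and DESeq2 called 0 members. At an unadjusted p under 0.05 stood 3 members and 1233 of the 12415 genes. Non-overlapping groups were found for 0.87% of genes here, and for none of the 5 members.

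**Figure D2:**
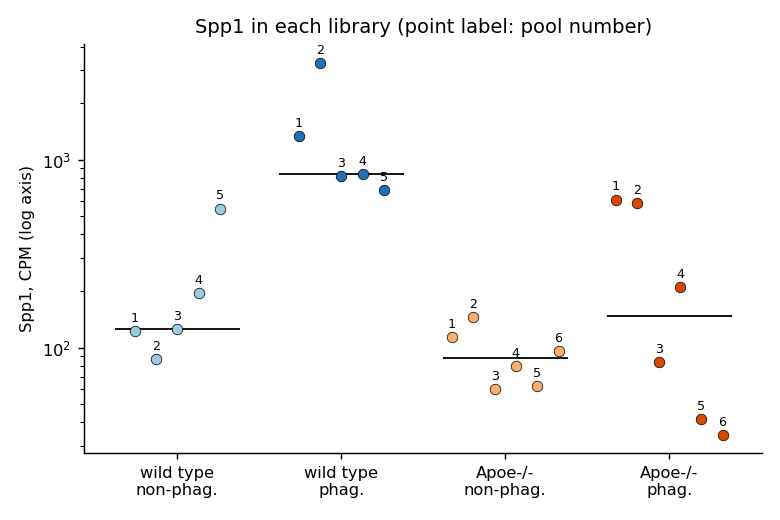
Spp1 in each of the 22 libraries, in CPM on a log axis, by genotype and sort, with the pool number beside each point and a bar at the group median. All wild-type phagocytic points, from 691 to 3291 CPM, lie above all other points, and the Apoe-/- phagocytic points run from 34.3 to 614 CPM.

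Averaged over both genotypes, Spp1 rose in phagocytic cells. The mean log2 fold change was 2.10 ± 0.44, a 4.28-fold higher level, and passed edgeR's test (adjusted p = 0.00811). Spp1 was the only member of the 5 called in this averaged comparison, in which 2.36% of all genes were called (1.8% of all genes as higher). An unadjusted p under 0.05 was found for 4 members and for 1799 of the 12415 genes. DESeq2 called Spp1 and Cd44. When each library was left out in turn, the value for Spp1 ranged from 1.80 to 2.45 with an adjusted p of at most 0.0219. That this effect differs by genotype was not shown for Spp1. The interaction was -1.18 ± 0.85 (unadjusted p = 0.177, edgeR adjusted p = 1), and edgeR called 0% of genes there, with 301 genes at an unadjusted p under 0.05, against 2 genes called by DESeq2. The interaction of Spp1 was -0.58 without wild-type phagocytic library 2 and -1.89 without wild-type non-phagocytic library 5.

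Within the phagocytic sort, all 6 Apoe-/- libraries held less Spp1 than all 5 wild-type libraries. The highest Apoe-/- value was 614 CPM and the lowest wild-type value 691 CPM. The share of genes without overlap was 0.789% in this comparison, and Spp1 was the only member among them. The log2 fold change was -2.41 ± 0.61, a 5.3-fold lower level in Apoe-/- cells, with an unadjusted p of 0.000549 and an edgeR adjusted p of 0.288. edgeR called 0.0322% of the genes and 0 members, and DESeq2 called 0 members. At an unadjusted p under 0.05 stood 1 member and 822 of the 12415 genes. Apoe itself checked the genotype labels, with 869 to 5145 CPM in the wild-type and 7.02 to 34.9 CPM in the Apoe-/- libraries.

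Within the non-phagocytic sort, Spp1 was lower in Apoe-/- cells by a smaller amount, with overlapping groups. The wild-type median was 126 CPM and the Apoe-/- median 88 CPM, and 3 of 6 Apoe-/- libraries lay below every wild-type library. The log2 fold change of -1.23 ± 0.60 did not pass (edgeR adjusted p = 0.999), and without wild-type non-phagocytic library 5 it was -0.52. edgeR called 0.0161% of the genes and 0 members here, and DESeq2 called 0 members. At an unadjusted p under 0.05 stood 0 members and 472 of the 12415 genes. Groups that did not overlap were found for 0.298% of genes, none of them a member. Over both sorts the genotype difference of Spp1 was -1.82 ± 0.43 (unadjusted p = 0.000248, edgeR adjusted p = 0.125). edgeR called 0.0564% of genes and 0 members in that average, and DESeq2 called 1 member, Spp1. At an unadjusted p under 0.05 stood 2 members and 1202 of the 12415 genes. The average passed edgeR's test without Apoe-/- phagocytic library 1 (-2.04, adjusted p = 0.0328). It did not pass in the other 21 fits that left out 1 library, with values up to -1.47 and an edgeR adjusted p of up to 0.324. The comparisons within genotypes and within sorts share libraries, so their values are not independent of each other.

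The pools differed in Ddx3y and Eif2s3y, genes of the Y chromosome, whose summed level was 43.7 to 99.6 CPM in 14 libraries and 0 to 2.7 CPM in 8. The 8 libraries without these reads were both sorts of wild-type pool 5 and of Apoe-/- pools 4, 5 and 6, so the makeup of the pools differed between the genotypes. Among pools with Y-linked reads, Spp1 was higher in the phagocytic library of the same number in 4 of 4 wild-type and 3 of 3 Apoe-/- pools. Among pools without them, this held for 1 of 1 wild-type and 1 of 3 Apoe-/- pools. The lower Spp1 of Apoe-/- phagocytic cells was seen on both sides of the split, with 84.1 to 614 CPM against 817 to 3291 CPM in pools with Y-linked reads and 34.3 to 210 CPM against 691 CPM in pools without. With 1 wild-type pool of the latter kind, a test within it was not run, and whether the sex of the pools contributed was not tested.

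Cd44, the receptor for hyaluronan and osteopontin, lies on chromosome 2 at 102811141 to 102901665 on the minus strand. It was higher in the phagocytic library than in the non-phagocytic library of the same number in 5 of 5 wild-type and 6 of 6 Apoe-/- pools, the only member for which this held throughout. Pool numbers were not shown to pair the libraries, so counts by number are given as a description. In wild-type cells the phagocytic libraries stood at 223, 71.4, 68.2, 179 and 198 CPM and the non-phagocytic libraries at 26.8, 20.6, 32.1, 141 and 90.6 CPM. The groups overlapped because wild-type non-phagocytic libraries 4 and 5 exceeded phagocytic libraries 2 and 3. The log2 fold change was 1.25 ± 0.47 (edgeR adjusted p = 0.45). In Apoe-/- cells the phagocytic libraries stood at 63.9, 77.2, 30.6, 114, 115 and 141 CPM and the non-phagocytic libraries at 32.1, 30.2, 23.6, 60.8, 40.3 and 70.5 CPM. There, 4 of 6 phagocytic libraries lay above every non-phagocytic library, and the log2 fold change was 1.05 ± 0.43 (edgeR adjusted p = 0.395). Averaged over genotypes the log2 fold change of Cd44 was 1.15 ± 0.32 (2.22-fold), which missed the threshold (edgeR adjusted p = 0.0522). It passed without wild-type non-phagocytic library 4 (1.42, edgeR adjusted p = 0.00751), without wild-type phagocytic library 2 or 3, Apoe-/- phagocytic library 3 or Apoe-/- non-phagocytic library 6 (1.23 to 1.24), and in DESeq2 (1.15, adjusted p = 0.00985). In the other 17 fits that left out 1 library it did not pass, with values down to 1.03 and an edgeR adjusted p of up to 0.102. The genotype difference was -0.72 ± 0.44 in phagocytic and -0.52 ± 0.45 in non-phagocytic cells (edgeR adjusted p of 0.798 and 0.999), and the latter came to 0.02 without wild-type non-phagocytic library 4.

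The reads of Cd44 were spread over several splice forms. Cd44-203, the standard form of 9 exons with a coding sequence of 1095 bases, took 24% of Cd44 reads on average. Cd44-207, with 5 more exons and 1731 coding bases, took 57.4%, and Cd44-201, with 10 more exons and 2340 coding bases, took 15%. Forms with variable exons thus took most of the estimated reads, with medians in phagocytic and non-phagocytic cells of 72.2% and 62.9% in the wild type and of 82.3% and 80.9% in Apoe-/- mice. The ranges overlapped between all groups, from 43.4% to 84.7% in wild-type non-phagocytic and from 57.3% to 100% in Apoe-/- non-phagocytic libraries, which rested on as few as 36 reads. The annotated 3′ ends of Cd44-207 and Cd44-201 also lie 1406 bases beyond that of Cd44-203, so reads from this last stretch could be placed only on the longer forms whatever exons their molecule held. The shares therefore do not separate splicing from the choice of 3′ end.

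**Figure D3:**
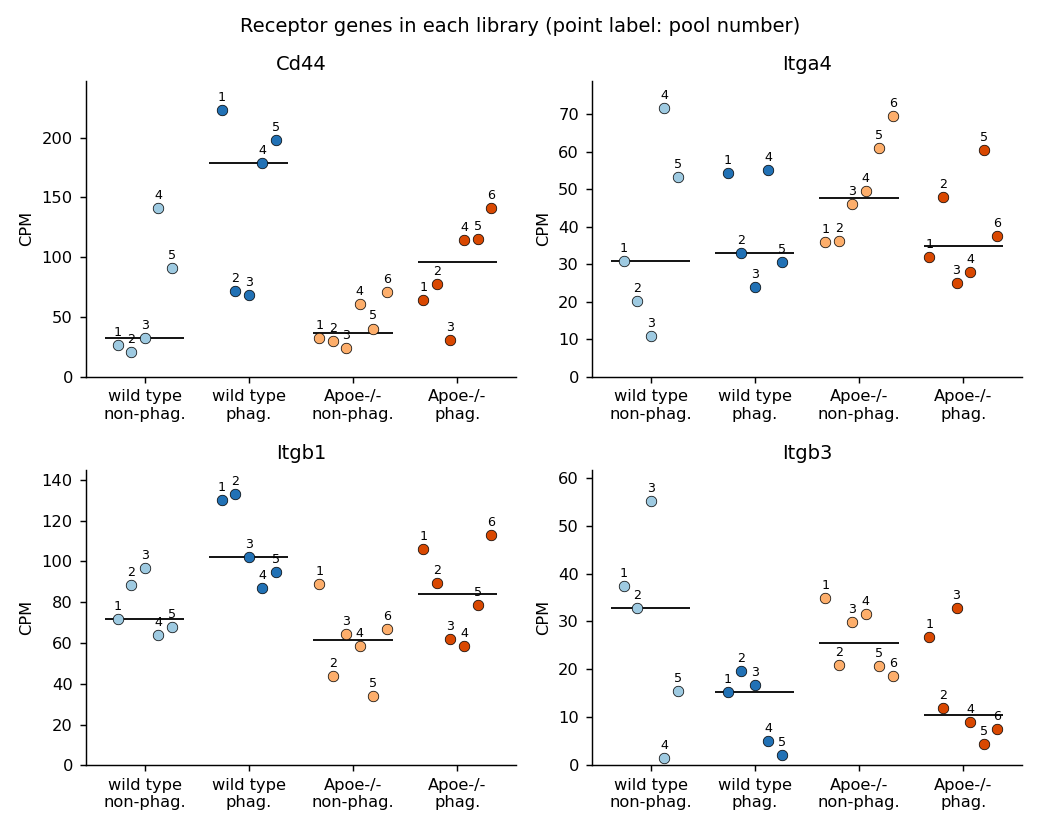
Cd44, Itga4, Itgb1 and Itgb3 in each library, in CPM on linear axes, by genotype and sort, with pool numbers beside the points and bars at the group medians. Phagocytic points of Cd44 and Itgb1 tend to lie above and those of Itgb3 below the non-phagocytic points, with overlap in each panel.

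Itga4 (chromosome 2, 79255426 to 79333123, plus strand), the α4 chain of the receptor for osteopontin, fibronectin and VCAM-1, showed no common direction. Wild-type phagocytic libraries ranged from 24 to 55.2 CPM around a median of 33.1 CPM, and wild-type non-phagocytic libraries from 10.8 to 71.6 CPM around 31 CPM. In Apoe-/- cells the range was 25.1 to 60.4 CPM (median 34.8) in phagocytic and 35.9 to 69.6 CPM (median 47.8) in non-phagocytic libraries, with 3 of 6 phagocytic libraries below every non-phagocytic one. The sort effect was 0.09 ± 0.37 on the log2 scale in wild-type and -0.38 ± 0.34 in Apoe-/- cells (edgeR adjusted p of 0.993 and 0.801). Transcript Itga4-201, with 28 exons, took 88.6% of the reads, and Itga4-205, a short noncoding form of 2 exons, took 7.72%.

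Itgb1 (chromosome 8, 128685654 to 128733200, plus strand), the β1 chain shared by α4, α5, α9 and many other partners, had positive sort effects in both genotypes without a call. The wild-type phagocytic libraries held 130, 133, 102, 86.8 and 94.6 CPM and the non-phagocytic libraries 71.9, 88.2, 96.9, 64 and 67.6 CPM. The phagocytic library was the higher of the same-numbered libraries in all 5 wild-type pools and in 4 of 6 Apoe-/- pools, although the groups overlapped. In Apoe-/- cells the phagocytic libraries ranged from 58.4 to 113 CPM and the non-phagocytic ones from 34 to 88.7 CPM. The sort effects were 0.49 ± 0.23 in wild-type and 0.51 ± 0.22 in Apoe-/- cells, the latter 0.27 without non-phagocytic libraries 2 and 5, and their mean of 0.50 ± 0.16 did not pass (edgeR adjusted p = 0.0992). It passed by a small margin without Apoe-/- non-phagocytic library 1 (0.57, edgeR adjusted p = 0.0488). The Itgb1 genotype difference over both sorts was -0.38 ± 0.16 (unadjusted p = 0.0241, edgeR adjusted p = 0.462). Itgb1-201 took 99.9% of its reads.

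Itgb3 (chromosome 11, 104608000 to 104670476, plus strand), the β3 chain of the vitronectin receptor, stood lower in phagocytic cells, against the direction of Spp1. In wild-type cells the phagocytic libraries held 15.2, 19.6, 16.7, 5.13 and 2.22 CPM. The non-phagocytic libraries held 37.3, 32.9, 55.2, 1.63 and 15.6 CPM. Pool 4 was low in both sorts, and its non-phagocytic library, with 3 reads for Itgb3, was the lowest of all 22. In Apoe-/- cells the phagocytic libraries held 26.7, 11.9, 32.9, 9.09, 4.5 and 7.52 CPM and the non-phagocytic libraries 34.8, 21, 29.9, 31.5, 20.8 and 18.6 CPM, with 4 of 6 phagocytic libraries below every non-phagocytic one. In each genotype the phagocytic library was the higher in 1 pool only. The log2 fold changes of Itgb3 were -1.26 ± 0.59 in wild-type and -0.71 ± 0.53 in Apoe-/- cells, with a mean of -0.99 ± 0.40, and did not pass (edgeR adjusted p of 0.613, 0.747 and 0.219). All reads of Itgb3 were placed on Itgb3-201, its full-length form. Platelets are rich in β3, and the 5 platelet markers (Gp9, Gp1bb, Gp5, Itga2b and Ppbp) summed to 2.24 to 16 CPM over all libraries.

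**Figure D4:**
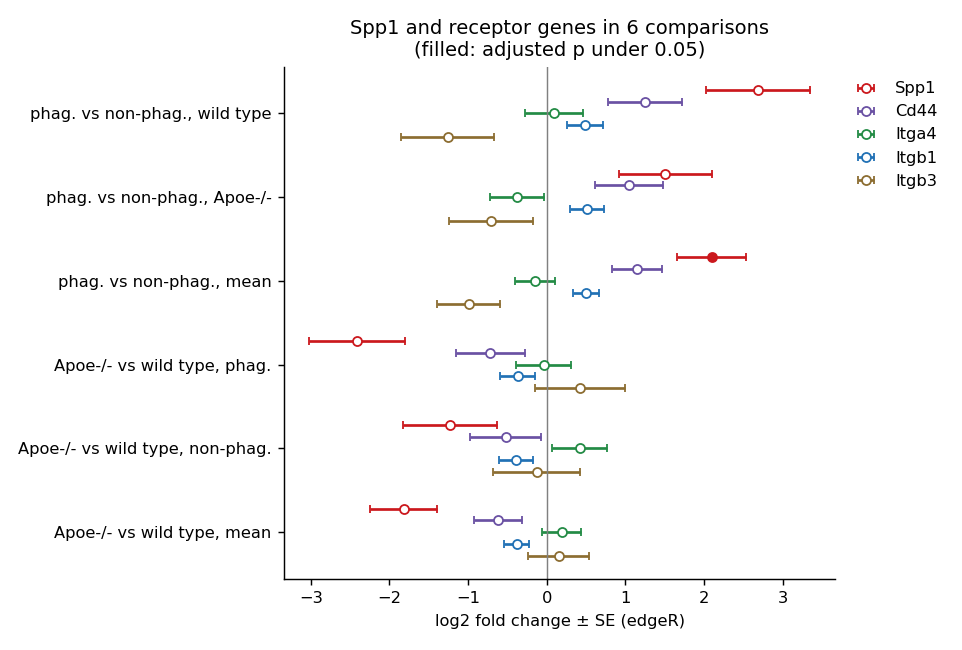
Log2 fold changes (± SE, edgeR) of the 5 genes in 6 comparisons of sort and genotype, with zero as a vertical line and filled points where the adjusted p is under 0.05. Spp1 averaged over genotypes, at 2.10, is the only filled point.

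Itgb3 varied with the microglial markers across libraries. The summed level of 8 microglial markers (P2ry12, Tmem119, Cx3cr1, Fcrls, Csf1r, Sall1, Siglech and Aif1) ran from 3358 to 11440 CPM, and Spearman's correlation of Itgb3 with it was 0.66 over the 22 libraries and 0.78 after the mean of each group had been subtracted. Cd44 went the other way, at -0.50 and -0.57, as did Itga4, at -0.64 and -0.67. Itgb1 gave 0.35 and 0.47, and Spp1 0.13 and 0.05. The 22 points share library depth and pools and are given as a description. The genes most like Itgb3 over the 22 libraries, chosen after its values had been seen, were Siglech (0.91), Ivns1abp (0.88), Adgrg1 (0.87), Git2 (0.87) and Tgfbr1 (0.86). After group means had been subtracted they were Tmem119 (0.91), Sparc (0.90), Adgrg1 (0.89), Cd34 (0.89) and Cst3 (0.88). Because these are bulk samples, fewer cells with a transcript and less of it per cell cannot be told apart, for Itgb3 or for any other member.

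Markers of other macrophages differed between the sorts in the same direction as Spp1. The 9 border macrophage markers (Pf4, Mrc1, Cd163, Lyve1, F13a1, Cbr2, Ms4a7, Stab1 and Folr2) summed to 505 to 993 CPM in wild-type phagocytic against 261 to 375 CPM in wild-type non-phagocytic libraries, and to 413 to 1077 against 193 to 327 CPM in Apoe-/- libraries. Of the 8 tested, 7 were called higher in the average over genotypes, against 1.8% of all genes. Among them was Pf4 (log2 fold change 3.33 ± 0.42, edgeR adjusted p = 3.79e-05), while Lyve1 was at 0 in 9 libraries. Stab1 made up much of the sum, at 192 to 297 CPM in wild-type non-phagocytic and 274 to 889 CPM in Apoe-/- phagocytic libraries. Within groups Spp1 did not follow this sum, with a Spearman correlation of -0.08 after group means had been subtracted (0.36 before). Cd44 gave 0.24 (0.61 before). These correlations rest largely on Stab1 and do not describe the less abundant markers. The sum of 6 markers of Mueller glia and astrocytes (Rlbp1, Glul, Slc1a3, Gfap, Aqp4 and Vim) also ran with Spp1. It was 319 to 660 CPM in wild-type phagocytic and 182 to 591 CPM in wild-type non-phagocytic libraries, against 267 to 382 and 192 to 287 CPM in the Apoe-/- libraries, and its Spearman correlation with Spp1 was 0.72 (0.57 after group means had been subtracted). Of the 4 markers tested 0 were called, and most of the sum was Vim, which macrophages also express (31.4 to 561 CPM), and Glul (51.5 to 174 CPM), while Gfap was at 0 in 10 libraries and Aqp4 in 6. The photoreceptor sum (7 markers) had medians of 1687 and 1562 CPM in wild-type and 3264 and 3238 CPM in Apoe-/- phagocytic and non-phagocytic libraries. The part of any of these cells in the differences of Spp1 was not tested.

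Spp1 also varied with the sum of the monocyte markers, of which Fn1 was a large part. The 7 monocyte markers (Ly6c2, Ccr2, Plac8, Chil3, S100a4, Fn1 and Vcan) had sums, for phagocytic and non-phagocytic libraries respectively, of 1041 to 3274 and 626 to 3146 CPM in the wild type and of 364 to 1199 and 483 to 1204 CPM in Apoe-/- mice. Spearman's correlation of Spp1 with this sum was 0.77 over the 22 libraries and 0.64 after group means had been subtracted. Fn1, which macrophages also express, made up much of the sum (874 to 2133 CPM in wild-type phagocytic libraries). Fn1 alone gave 0.80 with Spp1 over the 22 libraries, so the correlation with the sum is not separate from that with Fn1. The sort had removed cells with surface Ly6c. Ccr2 was detected in every library, between 24.2 and 493 CPM. The list did not go one way with the averaged sort: Vcan was called higher in phagocytic cells (2.36 ± 0.52, edgeR adjusted p = 0.0117) and Chil3 stood at 1.75 ± 0.78 (0.286), but Plac8 stood at -0.93 ± 0.50 (0.422), S100a4 at -0.64 ± 0.43 (0.556) and Ccr2 at -0.53 ± 0.37 (0.568). Both libraries of wild-type pool 4 had the highest monocyte sums, and without them, an exclusion chosen after seeing the data, the averaged sort effect of Spp1 was 2.15 (edgeR adjusted p = 0.0135). The part of monocytes in the differences of Spp1 was not tested.

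**Figure D5:**
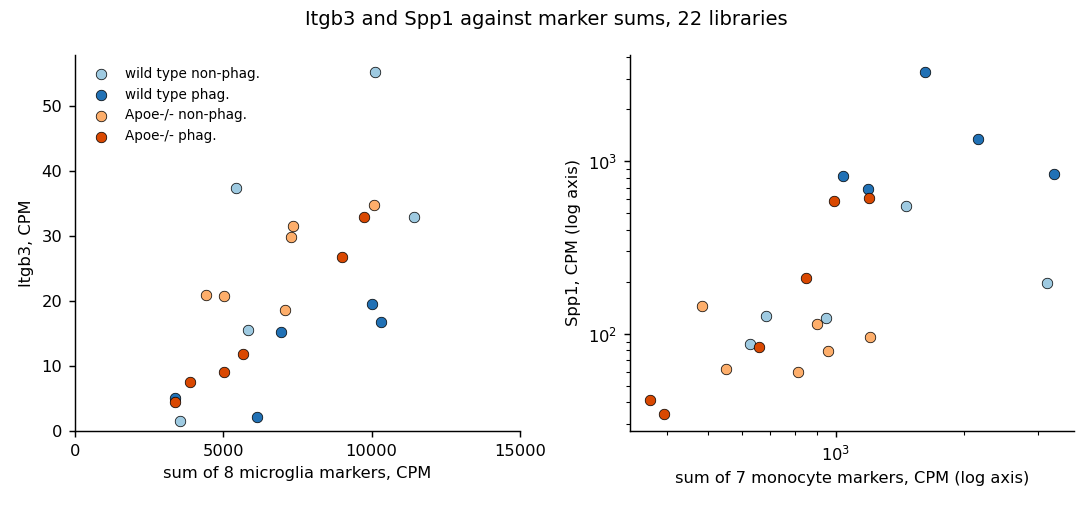
Itgb3 against the sum of 8 microglial markers (left, linear axes) and Spp1 against the sum of 7 monocyte markers (right, log axes), all in CPM, with 1 point per library coloured by group. Itgb3 tends to rise with the microglial sum, and the Apoe-/- phagocytic libraries with the lowest monocyte sums (364 and 393 CPM) hold the least Spp1 (41.4 and 34.3 CPM). Fn1 makes up much of the monocyte sum.

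The genes whose levels ran most like Spp1 over the 22 libraries were Arg1 (Spearman 0.81), which encodes the arginine-degrading enzyme arginase, Thbs1 (0.81), the matrix protein thrombospondin 1, Fn1 (0.80), fibronectin, Clec4n (0.79), the fungal lectin receptor dectin 2, and Ms4a8a (0.79). After group means had been subtracted, a different set led, with Rprd2 (0.78), Slc38a1 (0.76), Hnrnpr (0.76), Bank1 (0.76) and Egln3 (0.74). Such sets, here and for Cd44 below, are the tops of rankings of all 12415 genes tested. How high the top values come by chance was not tested. Arg1 was at 276 to 1543 CPM in wild-type phagocytic and 9.72 to 313 CPM in wild-type non-phagocytic libraries, against 7.52 to 596 and 7.21 to 77.9 CPM in the Apoe-/- libraries, and it was lowest among the Apoe-/- phagocytic libraries in library 6, as Spp1 was. The genes most like Cd44 were Rbpj (0.92), the DNA-binding partner of Notch, Dab2 (0.92), an endocytic adaptor, and Lilrb4a (0.89). After subtraction they were Gas7 (0.90), Adam8 (0.87) and Dab2 (0.86).

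Among the ligands that share receptors with osteopontin, Thbs1 rose with the sort. The list held Fn1, Vtn, Thbs1, Mfge8, Edil3, Vcam1, Madcam1, Srgn, Has1, Has2 and Has3. The Has genes encode enzymes that make hyaluronan and are not ligands themselves. Of the 11 genes listed, 8 were tested and 7 had a positive log2 fold change in the average over genotypes. The median of those tested was 0.36, against -0.02 over all genes. Of all genes, 2.36% were called there. On the list only Thbs1 was called, with 2.67 ± 0.52 (edgeR adjusted p = 0.00413). Its levels in phagocytic and non-phagocytic libraries were 122 to 328 and 4.85 to 64 CPM in the wild type. In Apoe-/- mice they were 10 to 217 and 0.415 to 67.2 CPM. Fn1, the ligand of α5β1 and α4β1, stood at 0.30 ± 0.25 (edgeR adjusted p = 0.664), and Mfge8, which bridges dying cells to αv integrins, at -0.07 ± 0.33 (0.961).

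The other integrin chains gave no call in any of the 7 comparisons of the edgeR fit over the 4 groups, and DESeq2 called Itga9 in 1 of them. Of the 8 further chains that bind osteopontin (Itgav, Itga5, Itga8, Itga9, Itgb5, Itgb6, Itgb7 and Itgb8), 5 were tested, with a median log2 fold change of -0.04 for the sort averaged over genotypes and 1 gene at an unadjusted p under 0.05. In that averaged comparison, 1799 of the 12415 genes stood under 0.05. Itgav, the partner of β3 and β5, stood at 37.6 to 59.3 CPM in wild-type phagocytic and 34.2 to 58.7 CPM in wild-type non-phagocytic libraries, and its averaged effect was -0.04 ± 0.16 (edgeR adjusted p = 0.959). Itgb5 (-0.12 ± 0.17, 0.834) and Itga9 (0.09 ± 0.24, 0.926) did not pass either, and Itga5, the fibronectin receptor's α chain, stood at 0.51 ± 0.23 (0.289). Itga9 was the gene of this list with a genotype difference at a low unadjusted p, higher in Apoe-/- cells by 1.03 ± 0.25 on the log2 scale over both sorts (edgeR adjusted p = 0.14, DESeq2 adjusted p = 0.0177). With counts scaled for transcript length, the Itga9 difference was 0.36 (edgeR adjusted p = 0.804), and within phagocytic cells it was 1.09 ± 0.35 unscaled and -0.04 scaled. Of the 16 remaining chains, 7 were tested, with a median of 0.35 for the averaged sort and 4 at an unadjusted p under 0.05. Those named by rule were Itgam (0.35 ± 0.16, edgeR adjusted p = 0.318), the CD11b chain on which the cells were sorted, its β2 partner Itgb2 (0.47 ± 0.18, 0.183), and Itgax (-0.57 ± 0.28, 0.353).

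Enzymes that phosphorylate or cut osteopontin had positive values in phagocytic cells without a call in this fit. Of 12 listed, 7 were tested, and all 7 had positive values in the averaged sort comparison, with a median of 0.37 and 3 at an unadjusted p under 0.05. Over all genes the median was -0.02, and 1799 of 12415 stood under 0.05. Ctsd, the lysosomal protease cathepsin D, came closest, at 0.66 ± 0.18 (edgeR adjusted p = 0.0554), and was called in 5 of 9 alternatives, DESeq2 among them (adjusted p = 0.0141), and in 4 of the 22 fits that left out 1 library. Its levels in phagocytic and non-phagocytic libraries were 3764 ± 795 and 2706 ± 1138 CPM in the wild type (SD, n = 5 each) and 4204 ± 556 and 2338 ± 862 CPM in Apoe-/- mice (n = 6 each). Fam20c, the kinase that phosphorylates secreted proteins, stood at 0.98 ± 0.32 (edgeR adjusted p = 0.109), and its mean was 90.8 CPM in wild-type phagocytic and 47.2 CPM in Apoe-/- phagocytic libraries. Its genotype difference in phagocytic cells, -0.93 ± 0.44, did not pass (edgeR adjusted p = 0.74). Acp5, a phosphatase that acts on osteopontin, had a larger one of -2.25 ± 0.59 that also did not pass (edgeR adjusted p = 0.3), with 36 to 169 CPM in wild-type phagocytic and 4.18 to 39.4 CPM in Apoe-/- phagocytic libraries. F2, which encodes thrombin, was near the limit of detection, at 0 to 4.5 CPM. The relatives of osteopontin beside it on the chromosome were all but silent: Ibsp reached 0.629 CPM and Dmp1 3.36 CPM at most, and of the 6 neighbours listed only Pkd2 was tested (-0.26 ± 0.27, edgeR adjusted p = 0.74).

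Of 14 transcription factors described for Spp1, all were tested and edgeR called only Jun for the averaged sort, in the direction opposite to Spp1. Of all genes, 2.36% were called there. Jun, a subunit of AP-1, fell by 0.90 ± 0.17 on the log2 scale in phagocytic cells averaged over genotypes (edgeR adjusted p = 0.00335), from 605 ± 170 to 346 ± 102 CPM in wild-type (SD, n = 5 each) and from 627 ± 77.3 to 315 ± 109 CPM in Apoe-/- cells (n = 6 each). Mitf, a factor of lysosomal and osteoclast genes, stood at 0.75 ± 0.27 (edgeR adjusted p = 0.153), and Runx1 at -0.39 ± 0.12 (0.104). DESeq2 called Jun, Fos (-0.41 ± 0.12, adjusted p = 0.032), another AP-1 subunit, and Nr1h3 (1.59 ± 0.44, adjusted p = 0.0135), a liver X receptor. For genotype, Spi1, the macrophage factor PU.1, had a log2 difference (Apoe-/- minus wild type) of -1.28 ± 0.26 in phagocytic cells (edgeR adjusted p = 0.0785) and of -0.86 ± 0.19 over both sorts (0.0846). DESeq2 called both differences of Spi1 (adjusted p of 0.00455 and 0.00782), as did edgeR without Apoe-/- phagocytic library 1 (edgeR adjusted p of 0.00309 and 0.0048). The list's median was 0.15, with 8 of 14 positive. The 21 adaptors and kinases that act below integrins and CD44, such as talin and focal adhesion kinase, were all tested and none was called by edgeR or DESeq2 in the averaged sort comparison, with 10 positive values, a median of -0.02 equal to that of all genes, and 3 at an unadjusted p under 0.05. Of all genes, 1799 of 12415 stood under 0.05 there.

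In the average over genotypes, Spp1 rose with several genes of the disease-associated microglial state, with which it is usually grouped. Over all genes, the median in the averaged sort comparison was -0.02, and 1.8% were called higher. Of 16 disease-associated genes, Apoe included and Spp1 left out, 14 had positive values there, the median was 0.65 and 6 were called. These were Gpnmb (3.96 ± 0.57, edgeR adjusted p = 0.000151), Lgals3 (2.24 ± 0.30, 5.75e-05), Ctsb (1.12 ± 0.16, 0.000151), Cd63 (0.82 ± 0.15, 0.00178), Fabp5 (1.65 ± 0.40, 0.0239) and Csf1 (0.88 ± 0.24, 0.0461). The call of Csf1 was lost in 17 of the 22 fits that left out 1 library and in 5 of 9 alternatives (highest adjusted p 0.116). That of Fabp5 was lost without wild-type non-phagocytic library 1 (adjusted p = 0.0511) and without Apoe-/- non-phagocytic libraries 2 and 5 (0.0625). Gpnmb, a transmembrane glycoprotein of lysosome-rich phagocytes, had a mean of 237 ± 107 CPM in wild-type phagocytic and 97.6 ± 96.6 CPM in Apoe-/- phagocytic libraries (SD, n = 5 and 6). Its genotype difference there was -1.28 ± 0.68, which did not pass (edgeR adjusted p = 0.798), beside -2.41 ± 0.61 for Spp1, and the difference between these values was not tested. Within Apoe-/- cells edgeR called 4 of the 16 genes for the sort, against 0.467% of all genes, while Spp1 did not pass. Within wild-type cells it called 2 of the 16, against 0.209% of all genes, and Spp1 did not pass there either. Apoe-/- phagocytic libraries 5 and 6 held the least Spp1 (41.4 and 34.3 CPM). Lgals3 stood there at 344 and 408 CPM, and Gpnmb at 11.7 and 225 CPM. The Apoe-/- non-phagocytic libraries held 50.9 to 88.7 CPM of Lgals3 and 0 to 12.5 CPM of Gpnmb.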

How the data were processed

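RNA-seq reads of 22 sorted microglia libraries were quantified by the authors. The deposited tables give an estimated count and a TPM per transcript (per the file headers), and Salmon 1.4.0, R 4.0.3, DESeq2 1.30.1 and mm10 are named per the submitters' processing notes, without their roles. The deposited FPKM table, which keeps genes above an FPKM of 5 per the file headers, served only as a check (Spearman against summed TPM of 0.90 to 1.00 for the 5 genes). Of 116248 transcripts, 116072 matched GENCODE M21 (GRCm38). Estimated counts were summed per gene and rounded. Libraries held 1131045 to 3643499 reads, of which 9.14% to 51.7% fell on 12 satellite-like predicted genes. Near-identical genes and overlapping genes share reads in such estimates. Without molecular identifiers, reads are not independent copies of molecules.

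Genes were tested with edgeR 4.0.16 (R 4.3.3; TMM, filterByExpr, quasi-likelihood test, 1 fit over the 4 groups, common coefficient of variation 0.426), with Benjamini-Hochberg adjustment over 12415 genes and a threshold of 0.05. The averaged comparisons are means of 2 contrasts of that fit. CPM are TMM-scaled, TPM the sum of deposited values. The test was checked on simulated counts. Alternatives were other scaling, no filter, length-scaled counts, satellite-like genes left out or used as a covariate, fewer groups, DESeq2 1.42.0, a replicate block and each library left out. Named genes were the 5 members, the called genes of 8 lists (at most 5 a list by smallest p), 13 genes always named, and genes of the highest Spearman correlation with Spp1 (5) and Cd44 (3). Csf1, Runx1, Ctsd, Fam20c, F2, Ibsp, Dmp1, Pkd2, Acp5, Spi1, Fos, Nr1h3, the marker genes given values and the genes like Itgb3 were added after their values were seen. The members and lists were chosen with earlier results of these data known. The microglial and monocyte marker sums each leave out 1 listed gene, which is not reported here. Protein sequences were not used here.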

Additional observations from a re-analysis of the deposited data

Results flagged for a closer look

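In 2 of 20 groups of 5 or 6 libraries examined (5 genes in 4 groups), 1 library stood apart by Dixon's test at its 95% level. Chance alone gives about 1 in 20 where values are normally distributed. The test was run on CPM without a log, where high values spread more widely, so chance may give more flags than that. It was not run on a log scale. Both were Spp1. Wild-type phagocytic library 2 reached 3291 CPM, with 0.749 of the group's range between it and the next library. Wild-type non-phagocytic library 5 reached 550 CPM, with 0.764 of the range below it. Leaving out the former gave a sort effect averaged over genotypes of 1.80 (edgeR adjusted p = 0.0219) and leaving out the latter gave 2.45 (edgeR adjusted p = 0.00247).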

How the results depend on the processing

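The rise of Spp1 in phagocytic cells averaged over genotypes kept its direction and its call under all 9 alternatives (1.78 to 2.22, highest adjusted p 0.0197) and in all 22 fits that left out 1 library (1.80 to 2.45). Without the filter on low counts, values moved little but adjusted p fell: Spp1 passed for the sort in wild-type (2.71) and Apoe-/- cells (1.52), for genotype in phagocytic cells (-2.42) and over both sorts (-1.82), and Cd44 passed for the sort in wild-type cells (1.27) and over genotypes (1.14), while the Itgb1 interaction turned to -0.01. DESeq2's test passed Spp1 for the sort in wild-type cells (2.68, adjusted p = 0.0217) and for genotype over both sorts (-1.79, adjusted p = 0.0496), and Cd44 over genotypes (1.15). With the satellite-like share as covariate, Cd44 passed over genotypes (1.26) and the genotype effect of Itgb3 in non-phagocytic cells turned to 0.39. Without wild-type pool 4, Cd44 passed over genotypes (1.38), and genotype effects turned for Cd44 in non-phagocytic (0.02), Itga4 in phagocytic cells (0.10) and Itgb3 over both sorts (-0.10). Without Apoe-/- non-phagocytic libraries 2 and 5, which had the highest satellite-like shares, the Itgb1 interaction was -0.20. With length-scaled counts, the genotype effect of Itga9 in phagocytic cells turned to -0.04. The exclusions of wild-type pool 4 and of Apoe-/- libraries 2 and 5 were chosen after seeing the data. The causes of these changes were not tested.

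Pool numbers were not shown to pair the libraries, as the labels do not say whether same-numbered libraries share animals. Deviations of same-numbered libraries from their group means correlated positively in every pool, at 0.0402 to 0.423 in wild-type and 0.0626 to 0.214 in Apoe-/- pools. Phagocytic libraries correlated best with their own number in wild-type pools 4 and 5 and Apoe-/- pools 1, 2, 4, 5 and 6. Those of wild-type pools 1, 2 and 3 and of Apoe-/- pool 3 did not. The presence of Y-linked reads was the same in both sorts of each number. With the replicate block, Spp1 passed for the sort in wild-type cells (2.75, edgeR adjusted p = 0.0193) and came to 0.82 in Apoe-/- cells, Cd44 passed in wild-type (1.43), Apoe-/- (1.03) and averaged comparisons (1.23), and Itgb1 (0.50) and Itgb3 (-1.05) passed in the average, as did Itgb2 (0.51, edgeR adjusted p = 0.0237), Ctsd (0.73), Fam20c (0.99), Fos (-0.39) and Nr1h3 (1.83). The interaction of Spp1 came to -1.93. The block turned the genotype effect of Itgb3 in non-phagocytic cells to 0.36.

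Genes called for the sort in wild-type cells numbered 26, and 122 without the filter, 59 with the covariate, 100 in DESeq2 and 135 with the replicate block. For the sort in Apoe-/- cells, 58 genes became 137, 145 in DESeq2, 255 with the block and 16 without Apoe-/- non-phagocytic libraries 2 and 5. For genotype in phagocytic cells, 4 became 96, 2 with only the compared groups fitted, 19 in DESeq2 and 7 with the block, and in non-phagocytic cells 2 became 16 without the filter. For the interaction, 0 became 17 without the filter and 2 in DESeq2. For the averaged sort effect, 293 became 513 in DESeq2 and 644 with the block. For the averaged genotype effect, 7 became 192 without the filter, 11 with the covariate, 31 in DESeq2 and 4 without wild-type pool 4.

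Leaving out 1 library at a time gave log2 fold changes for the sort in wild-type cells of 2.09 to 3.40 (Spp1) and -0.15 to 0.46 (Itga4), and averaged over genotypes of 1.03 to 1.42 (Cd44), 0.44 to 0.57 (Itgb1), -0.27 to 0.04 (Itga4), -0.04 to 0.17 (Itga9), -0.09 to 0.02 (Itgav) and -0.33 to 0.15 (Mfge8). For genotype it gave -2.04 to -1.47 (Spp1, both sorts), -0.02 to 0.35 (Itgb3, both sorts), -0.73 to 0.02 (Cd44, non-phagocytic), -0.43 to 0.27 (Itgb3, non-phagocytic) and -0.21 to 0.10 (Itga4, phagocytic), and for the Itgb1 interaction -0.10 to 0.16. Called genes ranged from 13 to 64 and 18 to 89 for the sort in wild-type and Apoe-/- cells, 191 to 355 averaged, 3 to 23 for genotype in phagocytic cells and 5 to 30 over both sorts. Depth limits Itgb3, with as few as 3 reads in a library, and the splice shares of Cd44.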
